A study of Mus musculus with 8 samples.

Results

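The ABC drug transporters described here are 8 mouse genes, Abcg2, Abcb1a, Abcb1b, Abcb4, Abcc1, Abcc3, Abcc4 and Abcc5, of the 18193 genes with a named probe set on the array. They were chosen by symbol as drug efflux transporters, a family picked because Abcg2 differed between the EPZ4777 arms of these same arrays. All 20 probe sets that the platform annotation gives exactly 1 of these symbols were kept, of 45037 probe sets that are not controls, and the probe set whose log2 intensity had the highest mean stands for each gene. No filter on low values was applied, so all 8 genes entered every fit. The choice has no numeric threshold. Because the EPZ4777 arrays supplied the difference that picked Abcg2, its values on those arrays are given without a test, and all members are described without a test wherever the EPZ4777 arms are compared with each other.

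The study measured RNA from mouse leukemic cells transformed by the MLL-AF9 fusion, grown with 15% fetal bovine serum, stem cell factor at 20 ng/ml, and IL-3 and IL-6 at 10 ng/ml each. All cells carried an RNA interference construct, either shLUC, the control hairpin, or the one labelled shSirt1. EPZ4777, an inhibitor of the histone H3K79 methyltransferase DOT1L, was given at 3 uM, for 6 days to shLUC cells and for 21 days to cells labelled shSirt1, and DMSO was the vehicle. The 4 groups were therefore shLUC in DMSO, shLUC in EPZ4777, shSirt1 in DMSO and shSirt1 in EPZ4777, with 2 arrays each. The titles carry a code, A4 and D11 in shLUC and A1 and A5 in shSirt1, and each code appears once with DMSO and once with EPZ4777. What a code stands for, and the time of the DMSO arrays, are not given in the labels. Hairpin and days in drug cannot be told apart in these data. Nothing in the labels makes the arrays within a group separate cultures, and p-values then measure only the spread between these arrays, which may be technical.

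ABC transporters use the energy of ATP to move substrates across membranes. Members of the ABCG and ABCB subfamilies carry hydrophobic drugs, lipids and porphyrins out of cells, and the ABCC subfamily carries organic anions such as glutathione and glucuronide conjugates. In blood formation, ABCG2 is known for the dye efflux that marks stem cells, and P-glycoprotein, the product of Abcb1a and Abcb1b in mice, is known for drug resistance in leukemia.

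Sirt1 was measured first as a check of the labels. Against the shLUC mean of the same agent, the A1 arrays stood at 56.6% in DMSO and 57.8% in EPZ4777. The A5 arrays stood at 102% and 106%, so the hairpin label is not borne out by Sirt1 RNA on A5, and the wording "cells labelled shSirt1" is used throughout. Array medians lay between 5.21 and 5.27 log2 units and lower quartiles between 3.75 and 3.84. Of the markers that define stem cells, Kit was at 8.58 to 9.71 on all arrays and Cd34 at 2.43 to 3.39, under every lower quartile. Flt3 lay between 4.71 and 5.39. Of the 10 stem and progenitor markers measured, Meis1 fell with drug in shLUC cells by 3.96 ± 0.44 (limma adjusted p = 0.0244). Procr rose there by 1.10 ± 0.15 (adjusted p = 0.0285), beside 3.98% of all genes called. In cells labelled shSirt1 0 of the 10 were called, beside 0.396% of all genes. Meis1 read -2.68 ± 0.44 there, with an adjusted p of 0.0694 and of 0.0146 with the code as a replicate block. The neutrophil markers Cd177, Lcn2 and Ltf were above the lower quartile on every array, the lowest reading being 4.54 for Ltf on A1 in DMSO. The summed intensity of 13 neutrophil markers ran from 11871 to 35896 in DMSO and from 61169 to 105822 in EPZ4777. The sum of 13 monocyte and macrophage markers ran from 6441 to 7439 in shLUC cells and from 1702 to 4363 in cells labelled shSirt1. The sum hides opposite moves, as with drug 5 of the 13 were called higher and 2 lower in shLUC cells, beside 3.98% of all genes called. In cells labelled shSirt1 0 were called higher and 2 lower, beside 0.396% of all genes. The stroma marker Col3a1 was at 6.92 on the A1 DMSO array and at 3.13 or lower on the other 7. Fewer cells of a type and less RNA per cell cannot be told apart in such bulk samples.

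Promoter sequences are shown for Abcb1b, for its neighbour and close paralogue Abcb1a, and for Abcg2, on which the family was picked. Abcb1b had the largest drug difference among the members when both arms were averaged, and the signal of Abcb1a was dim. On chromosome 5, RefSeq places Abcb1a, Abcb1b and Abcb4 in a row, with 2 long noncoding RNA genes between the first pair that were not measured. Each sequence is the 250 bases before an annotated start in RefSeq, build GRCm38.p6, written 5' to 3' on the strand of the gene, which is the plus strand for all 3. The sequences are chr5:8797897-8798146 for Abcb1b, chr5:8566841-8567090 for Abcb1a and chr6:58640296-58640545 for the third of 3 annotated Abcg2 starts. Capitals mark the motifs searched for.
Abcb1b: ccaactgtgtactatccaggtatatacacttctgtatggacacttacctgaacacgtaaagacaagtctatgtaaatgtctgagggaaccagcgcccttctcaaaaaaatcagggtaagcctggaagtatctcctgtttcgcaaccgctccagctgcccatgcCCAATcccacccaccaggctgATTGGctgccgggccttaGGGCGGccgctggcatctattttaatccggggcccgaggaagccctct
Abcb1a: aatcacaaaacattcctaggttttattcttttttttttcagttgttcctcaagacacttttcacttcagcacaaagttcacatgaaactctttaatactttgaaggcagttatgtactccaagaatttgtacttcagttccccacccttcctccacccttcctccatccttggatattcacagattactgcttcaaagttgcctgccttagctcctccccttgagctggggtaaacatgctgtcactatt
Abcg2: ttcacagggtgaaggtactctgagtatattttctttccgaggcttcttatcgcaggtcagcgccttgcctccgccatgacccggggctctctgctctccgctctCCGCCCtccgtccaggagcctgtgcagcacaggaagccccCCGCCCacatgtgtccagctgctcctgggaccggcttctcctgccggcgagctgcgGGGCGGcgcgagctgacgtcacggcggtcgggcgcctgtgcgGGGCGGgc
The motifs were the TATA box TATAAA, the GC box GGGCGG, the CCAAT box CCAAT, the E-box CACGTG, the AHR core GCGTG and the NRF2 core TGACNNNGC, each on both strands. No motif overlapped another in the 3 sequences printed.

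The Abcb1b window held 1 GC box, 48 bases before the start, and 2 CCAAT boxes, of which the farther began 87 bases before it. Its GC content was 52.8% with 9 CpG, beside a median of 52.4% and 6 CpG over 32851 windows of the same length. The Abcb1a window had a GC content of 40.4%, 0 CpG and none of the 6 motifs. The printed Abcg2 window had 67.6% GC, 23 CpG and 4 GC boxes. The other Abcg2 windows had 3 and 10 CpG, and the array does not tell which start was used. Over all windows, 32.7% held the GC box, 33.8% the CCAAT box, 28.2% the AHR core, 12.4% the TATA box, 10.2% the NRF2 core and 6.0% the E-box. Of the 8 members 6 had a window in the table, and the motifs are a description of these letters only.

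Abcg2, the breast cancer resistance protein, exports urate, porphyrins and many drugs, and was measured by 1 probe set. In shLUC cells its log2 intensity in DMSO was 6.72 on A4 and 7.16 on D11. After 6 days of EPZ4777 it was 6.25 on A4 and 6.67 on D11. The arm labelled shSirt1 read 7.96 on A1 and 7.14 on A5 in DMSO, and 8.93 and 8.66 after 21 days of drug. The level was thus highest on both drug-treated arrays of cells labelled shSirt1 and lowest on both drug-treated shLUC arrays, and these groups did not overlap. The drug-minus-DMSO log2 difference was -0.48 ± 0.30 (standard error, n = 2 arrays per group) in shLUC cells, a ratio of 0.715. In the other arm it was 1.25 ± 0.30, 2.37-fold higher. With each array left out in turn, the shLUC value ran from -0.70 (without A4 in DMSO) to -0.26 (without D11 in DMSO). The other ran from 0.83 (without A5 in DMSO) to 1.66 (without A1 in DMSO). By code, Abcg2 was lower with drug by -0.47 on A4 and -0.49 on D11, and higher by 0.97 on A1 and 1.52 on A5.

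Between the drug-treated arms Abcg2 was 2.34 ± 0.30 log2 units, or 5.05-fold, higher in the cells labelled shSirt1. This is the difference that picked the family, and it has no test here. The order of group means was 6.46 in shLUC with drug, 6.94 in shLUC with DMSO, 7.55 in labelled shSirt1 with DMSO and 8.80 in labelled shSirt1 with drug. The 2 DMSO groups, which are neighbours in that order, overlapped. In DMSO alone, where no drug-treated array enters the contrast, Abcg2 differed by 0.61 ± 0.30 (95% interval -0.09 to 1.31) and did not pass the limma test, with an adjusted p of 0.885. That difference was 0.20 without the A1 DMSO array and 1.02 without the A5 DMSO array. The monocyte and macrophage sum was lower on all 4 arrays labelled shSirt1, all 13 of its markers were lower there in the drug-treated comparison (median -2.30), and the A1 DMSO array also carried the Col3a1 signal. The summed intensity of 8 erythroid markers was highest on the drug-treated A1 and A5 arrays, at 7861 and 8284 beside at most 6980 elsewhere. Most of that sum came from 1 gene, the transferrin receptor Tfrc, with a mean log2 of 12.7 over the 8 arrays. The other erythroid markers had means of at most 5.94, and Gata1 was at most 4.03 on any array. The sum of 9 mast cell and basophil markers was also highest there, at 907 and 1358 beside at most 700 elsewhere. Among its defining markers, Fcer1a was at most 3.17 on any array, under every lower quartile, and Cpa3 lay between 3.53 and 4.07. Mcpt8 lay between 7.26 and 8.69, above every lower quartile, and was higher with drug in each code. On A5 with drug Mcpt8 was 7.86, beside 8.08 on shLUC D11 with drug. Hdc, another gene of this list, had a mean log2 of 8.03. It differed with drug by 0.37 ± 0.50 in shLUC cells and by 1.59 ± 0.50 in cells labelled shSirt1 (limma adjusted p of 0.761 and 0.223). The part of these signals in the Abcg2 values was not tested.

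**Figure D1:**
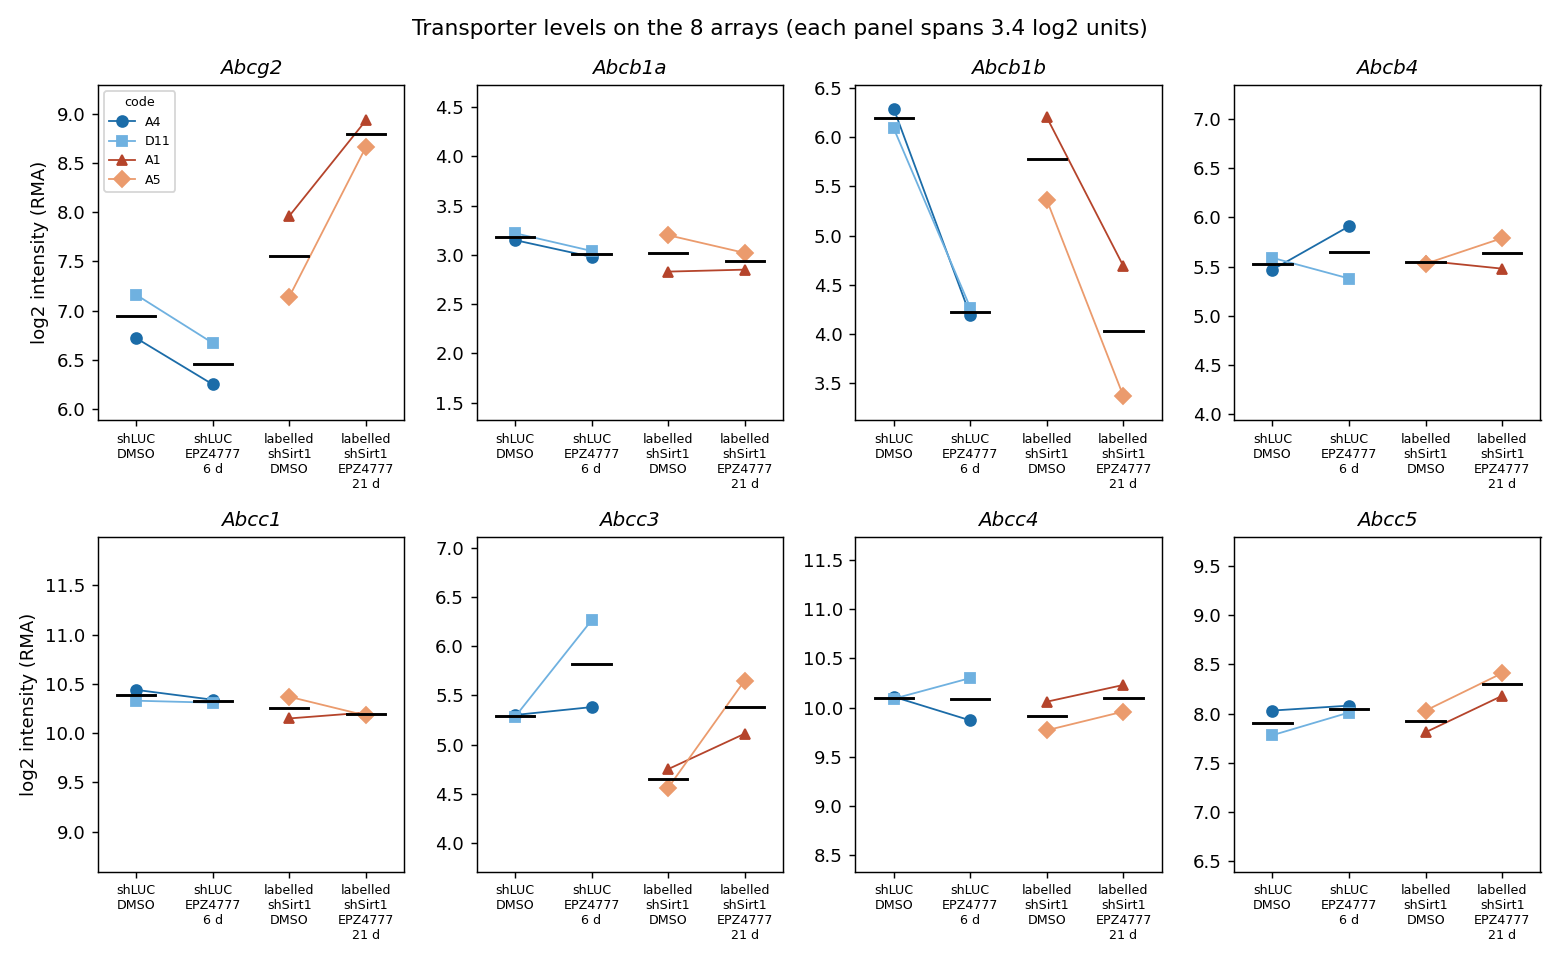
Log2 RMA intensity (vertical axis, each panel spanning the same number of log2 units) of the 8 transporters in the 4 groups (horizontal axis). Points are single arrays, lines join arrays of 1 code and black bars are group means. Abcg2 goes down in both shLUC codes and up in both codes labelled shSirt1, and Abcb1b goes down in all 4 codes.

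Among the ABCB genes, Abcb1b fell with EPZ4777 when both arms were averaged, by 3.62-fold. This gene encodes 1 of the mouse P-glycoproteins, the drug pump that human cells make from a single gene. In shLUC cells its log2 intensity was 6.29 on A4 and 6.09 on D11 in DMSO, and 4.19 and 4.27 with drug. The other arm read 6.20 on A1 and 5.36 on A5 in DMSO, and 4.69 and 3.37 with drug. Every drug-treated array was under every DMSO array, and the lowest value, on A5 with drug, lay under that array's lower quartile of 3.81. By code the difference was -2.10 on A4, -1.81 on D11, -1.51 on A1 and -1.99 on A5.

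In shLUC cells the Abcb1b difference was -1.96 ± 0.43 (95% interval -2.98 to -0.94), 3.88-fold lower. Its limma p of 0.00263 became 0.0558 after Benjamini-Hochberg adjustment over all 18193 genes, which missed the threshold of 0.05, and was 0.0178 with the code as a replicate block. In cells labelled shSirt1 the difference was -1.75 ± 0.43 (95% interval -2.77 to -0.73), 3.36-fold lower, with an adjusted p of 0.155, and of 0.0165 with the replicate block. That value was -1.09 without the A5 drug array and -2.41 without the A1 drug array. With the mean of both Abcb1b probe sets it was -0.84, and -1.05 in shLUC cells. The difference between the drug effects of the arms was 0.21 ± 0.61 and was not tested. The average over both arms was examined after Abcb1b had missed the threshold in each arm, and it mixes 6 and 21 days of drug. It was -1.85 ± 0.30 (95% interval -2.57 to -1.13, n = 4 arrays per agent), with an adjusted p of 0.0193 and of 0.00388 with the replicate block, or -0.95 with an adjusted p of 0.0204 for the mean of both probe sets. Without the shLUC DMSO arrays of A4 or D11, or the shLUC drug array of D11, the adjusted p of the average was 0.0936, 0.0833 or 0.0633, and the sign stayed negative in all 17 alternatives.

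The neutrophil sum was higher with drug in all 4 codes, and all 13 markers had positive differences in both arms, with medians of 2.03 and 2.45. Of the 13, 3 were called in shLUC cells, beside 3.98% of all genes, and 0 in cells labelled shSirt1, beside 0.396%. With the replicate block 6 and 7 were called, beside 7.23% and 2.22% of all genes. The part of the neutrophil sum in the fall of Abcb1b was not tested. In DMSO the arms differed in Abcb1b by -0.41 ± 0.43 (95% interval -1.43 to 0.61, adjusted p = 0.929), with overlapping groups. A second Abcb1b probe set was dim, between 3.37 and 3.86 on all arrays, and differed with drug by -0.15 in shLUC cells and by 0.06 in the other arm. The fall therefore rests on 1 probe set, which the annotation ties to the Abcb1b transcript NM_011075. Abcb1a and Abcb1b are alike in sequence, and whether a probe set binds the transcript of the other gene was not tested.

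Abcb1a, the second mouse P-glycoprotein gene, lay between 2.83 and 3.22 on the 8 arrays, under the lower quartile of each. In shLUC cells it was 3.15 and 3.22 in DMSO and 2.98 and 3.04 with drug. The arm labelled shSirt1 read 2.83 and 3.20 in DMSO and 2.85 and 3.02 with drug. At so dim a signal a difference may not be detectable, and its second probe set was also dim, at 2.45 to 2.90. Abcb4, the third gene of the row, encodes the pump that moves phosphatidylcholine into bile. Its level was 5.47 and 5.59 in shLUC DMSO, 5.91 and 5.38 in shLUC with drug, 5.56 and 5.53 in labelled shSirt1 DMSO and 5.48 and 5.79 with drug. The groups overlapped, and the drug differences were 0.11 ± 0.19 (95% interval -0.34 to 0.57) and 0.09 ± 0.19 (-0.37 to 0.54). Abcb1b was thus the single gene of this chromosome 5 row with a called difference, in the average over both arms and, with the replicate block, in each arm.

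In the ABCC subfamily no gene passed the test with its main probe set in any of the tested comparisons. Abcc1, the multidrug resistance protein that exports leukotriene C4 and glutathione conjugates, was the least variable member, with an SD of 0.10 over the 8 arrays. In shLUC cells it was 10.44 and 10.33 in DMSO and 10.34 and 10.31 with drug. The other arm read 10.15 and 10.37 in DMSO and 10.21 and 10.18 with drug. The drug difference was -0.06 ± 0.11 in shLUC cells and, in the other arm, -0.07 ± 0.11, and the intervals, -0.33 to 0.21 and -0.34 to 0.20, do not reach the size measured for Abcb1b. Abcc4, which exports cyclic nucleotides and nucleotide analogues, read 10.11 and 10.09 in shLUC DMSO, 9.87 and 10.30 with drug, 10.06 and 9.77 in labelled shSirt1 DMSO and 10.23 and 9.96 with drug. Its groups overlapped in both drug comparisons, and the differences of -0.02 ± 0.18 and 0.18 ± 0.18 had intervals from -0.44 to 0.41 and from -0.24 to 0.61.

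Abcc3, a carrier of glucuronides and bile salt conjugates, was higher with drug in all 4 codes but missed the threshold. In shLUC cells it was 5.30 on A4 and 5.28 on D11 in DMSO, and 5.38 and 6.26 with drug. The arm labelled shSirt1 read 4.75 on A1 and 4.56 on A5 in DMSO, and 5.11 and 5.65 with drug. The gain was uneven within each arm, at 0.08 on A4 and 0.98 on D11, and at 0.36 on A1 and 1.09 on A5. The differences were 0.53 ± 0.29 in shLUC cells (adjusted p = 0.368) and 0.72 ± 0.29 in cells labelled shSirt1 (limma p of 0.0435, adjusted p = 0.304). Averaged over both arms the difference was 0.63 ± 0.21 with an adjusted p of 0.103, and without the shLUC drug array of A4 it was 0.85 with an adjusted p of 0.0233. The codes with the larger gain, D11 and A5, also had the higher neutrophil sums with drug, 103740 and 105822 beside 61169 on A4 and 62100 on A1. The part of that signal in Abcc3 was not tested. In DMSO the groups did not overlap, and Abcc3 was lower in cells labelled shSirt1 by -0.63 ± 0.29, with an adjusted p of 0.882.

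Abcc5, which exports cyclic nucleotides and glutamate conjugates, had 10 of the 20 probe sets. Its main probe set read 8.03 and 7.78 in shLUC DMSO and 8.08 and 8.01 with drug. The other arm read 7.81 and 8.03 in DMSO, and 8.18 and 8.41 with drug. The groups overlapped in shLUC cells and did not in cells labelled shSirt1, where the difference was 0.38 ± 0.14 (limma p of 0.0341, adjusted p = 0.28). The difference in shLUC cells was 0.14 ± 0.14, with an interval from -0.20 to 0.48.

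The other Abcc5 probe sets mostly read a larger difference than the main one. In shLUC cells 8 of the 10 were positive, with a median of 0.29 and a range from -0.26 to 0.65. For cells labelled shSirt1 9 of 10 were positive, with a median of 0.56 and a range from -0.14 to 0.95. In DMSO the arms gave 2 positive and 8 negative differences between -0.19 and 0.09. When all probe sets of the array were tested singly, 1 Abcc5 probe set passed in shLUC cells, at 0.65 ± 0.11 with an adjusted p of 0.0378, beside 3.26% of all probe sets. The annotation names no transcript for that probe set, and whether it binds transcripts of other genes was not tested. Of the 10, 0 passed in limma in cells labelled shSirt1, beside 0.129% of all probe sets, and 1 did with the replicate block, beside 1.38%. In the average over both arms 4 of the 10 passed, beside 7.28% of all probe sets, and 6 with the replicate block, beside 12.7%. The mean of the 10 probe sets gave 0.39 for the average over both arms, with an adjusted p of 0.0278, where the main probe set gave 0.26 ± 0.10 with an adjusted p of 0.157. The call for Abcc5 in the average over both arms therefore depends on how its probe sets are joined. Probe sets of 1 gene share its transcripts and are not replicates.

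**Figure D2:**
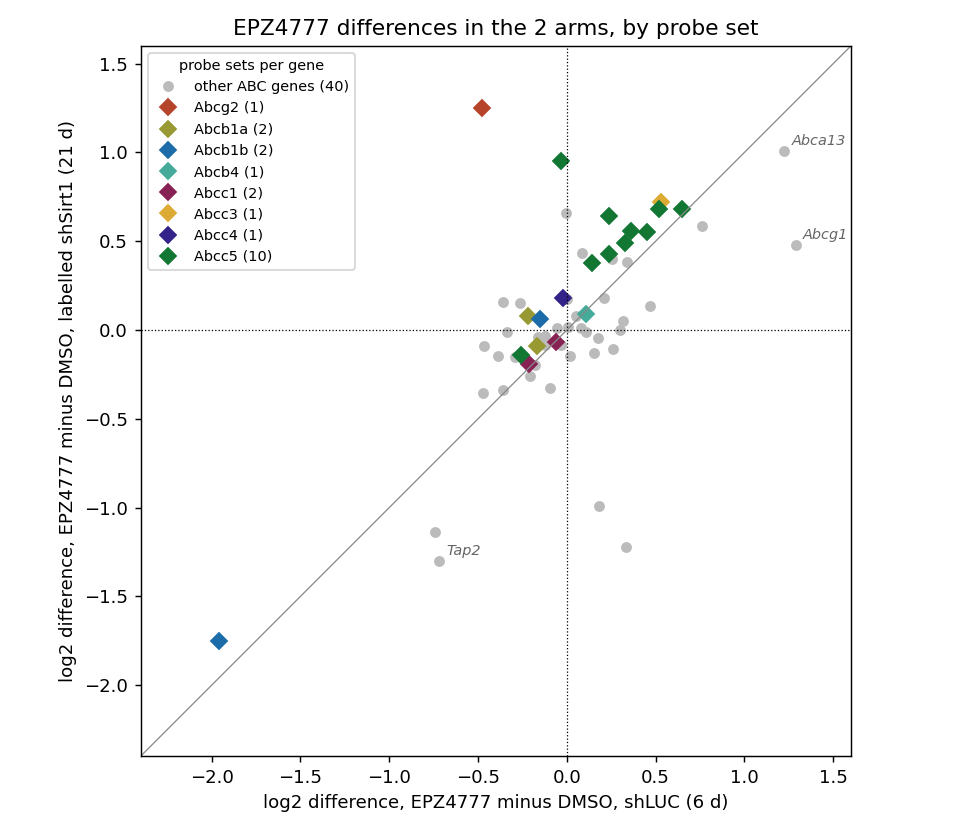
Log2 difference of EPZ4777 minus DMSO for shLUC (horizontal axis, 6 days) and in cells labelled shSirt1 (vertical axis, 21 days). Diamonds are the 20 probe sets of the 8 transporters, grey circles the 40 other measured ABC genes, and the solid line marks equal differences. Abcb1b lies at the lower left on 1 of its 2 probe sets, most Abcc5 probe sets lie above 0 in both arms, and Abcg2 lies at -0.48 and 1.25.

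The members' counts rest on 7 or 8 genes and are given beside the share of all genes. In shLUC cells 0 of the 7 tested members passed in limma, beside 724 genes called (295 higher, 429 lower), or 3.98% of all genes. An unadjusted p under 0.05 was found for 1 of the 7 there, beside 3945 genes, or 21.7%, and 1 passed with the replicate block, beside 1316 genes, or 7.23%. Among cells labelled shSirt1 0 of 7 passed, beside 72 genes called (39 higher, 33 lower), or 0.396%. An unadjusted p under 0.05 was found for 3 of these 7, beside 2876 genes, or 15.8%, and 1 passed with the block, beside 404 genes, or 2.22%. In DMSO 0 of 8 passed and 0 had an unadjusted p under 0.05, beside 0 genes called, or 0%, and 985 genes, or 5.41%, at an unadjusted p under 0.05. In the average over both arms 1 of 7 passed, beside 1979 genes, or 10.9%, so that share is near the background. With the replicate block 1 of 7 passed in the average, beside 2925 genes, or 16.1%. Leaving out either shLUC DMSO array took the genes called to 0 in both arms, and to 6 (without A4) or 2 (without D11) in the average. Between the drug-treated arms 56 genes, or 0.308%, were called, and for the difference of the drug effects 0 genes, or 0%, beside 1221 at an unadjusted p under 0.05 and 3 with the replicate block. No member is counted as called in those comparisons.

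Groups that do not overlap were common on 2 arrays each. They occurred in 4 of 8 members in shLUC cells, beside 52.4% of all genes, and in 4 of 8 in cells labelled shSirt1, beside 49.0%. In DMSO they occurred in 2 of 8 members, Abcc3 and Abcc4, beside 39.2%. Between the drug-treated arms they occurred in 2 of the 7 members other than Abcg2, which was picked on that difference, beside 39.2% of all genes, and nothing is read from that count. In the average over both arms, with 4 arrays per agent, Abcb1b was the only 1 of 8 members without overlap, beside 18.0% of all genes. The median member difference was -0.04 in shLUC cells, 0.13 in cells labelled shSirt1 and -0.14 in DMSO, while the median of all genes was -0.002, 0.011 and -0.013. An exact permutation test of 2 against 2 arrays cannot give a p below 0.333.

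**Figure D3:**
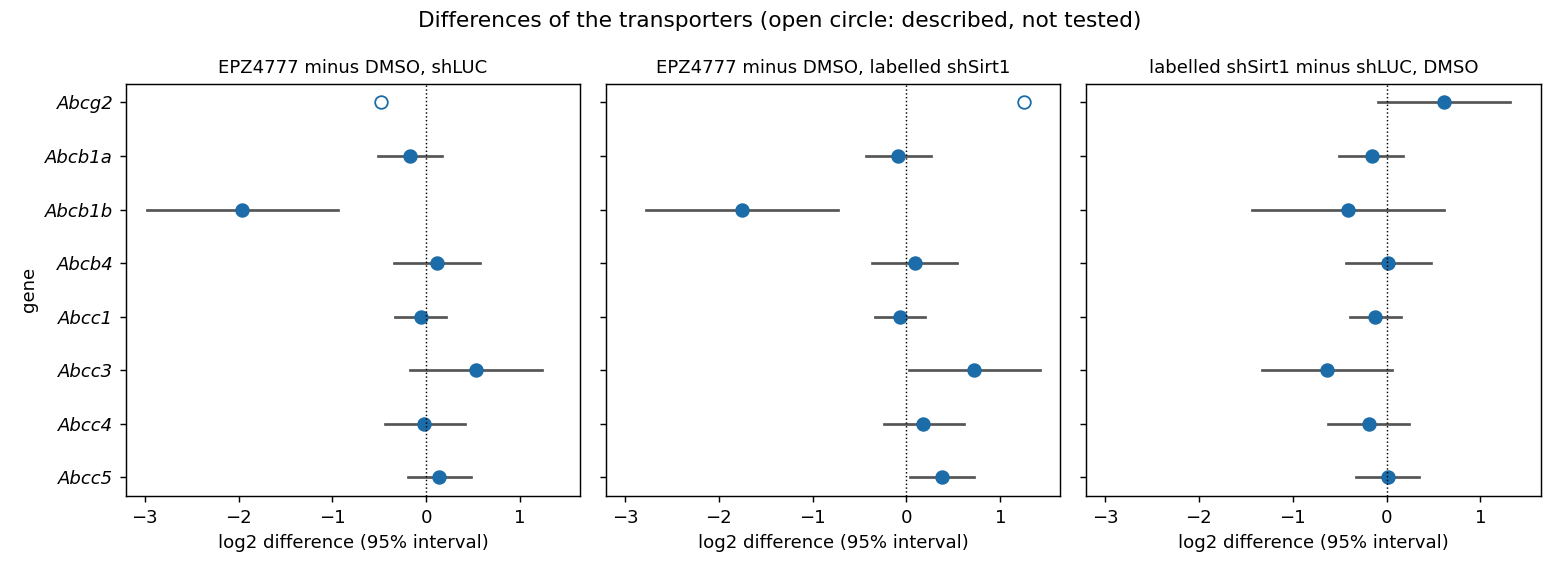
Log2 difference (horizontal axis) of each transporter with its 95% interval from limma, in 3 comparisons. Filled circles were tested, and open circles, used for Abcg2 where drug-treated arrays enter, were not and carry no interval. The Abcb1b intervals lie under 0 in both drug comparisons, and in DMSO every interval includes 0.

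Over all 8 arrays, Abcb1b, Abcg2 and Abcc3 varied most among the members. Their SDs were 1.09, 0.98 and 0.53 log2 units, larger than those of 98.6%, 98.2% and 93.3% of all genes, and the other 5 members had SDs from 0.10 to 0.20. The SD of Abcg2 includes the drug-arm difference it was picked on, so its rank is a description. The genes most like each of the 3 were sought among 1321 genes with an SD of at least 0.5, by Pearson's r over the 8 arrays, which share hairpin, drug and code. For Abcg2 these were Smad1, a BMP signal transducer (r = 0.948), Perp, a membrane protein of desmosomes (0.937), Apol8 (0.923), Nrip1, a nuclear receptor corepressor (0.879), and Hmgn1, a nucleosome-binding protein (0.876). For Abcb1b they were Map3k20, a stress kinase (r = 0.984), Rabgap1l (0.969) and Zmat3, a zinc-finger RNA-binding protein (0.968). For Abcc3 they were Itgb2, the integrin beta chain of leukocytes (r = 0.972), Zfp597 (0.970) and Tmem50b (0.969). These values are a description of 8 arrays in 4 groups.

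**Figure D4:**
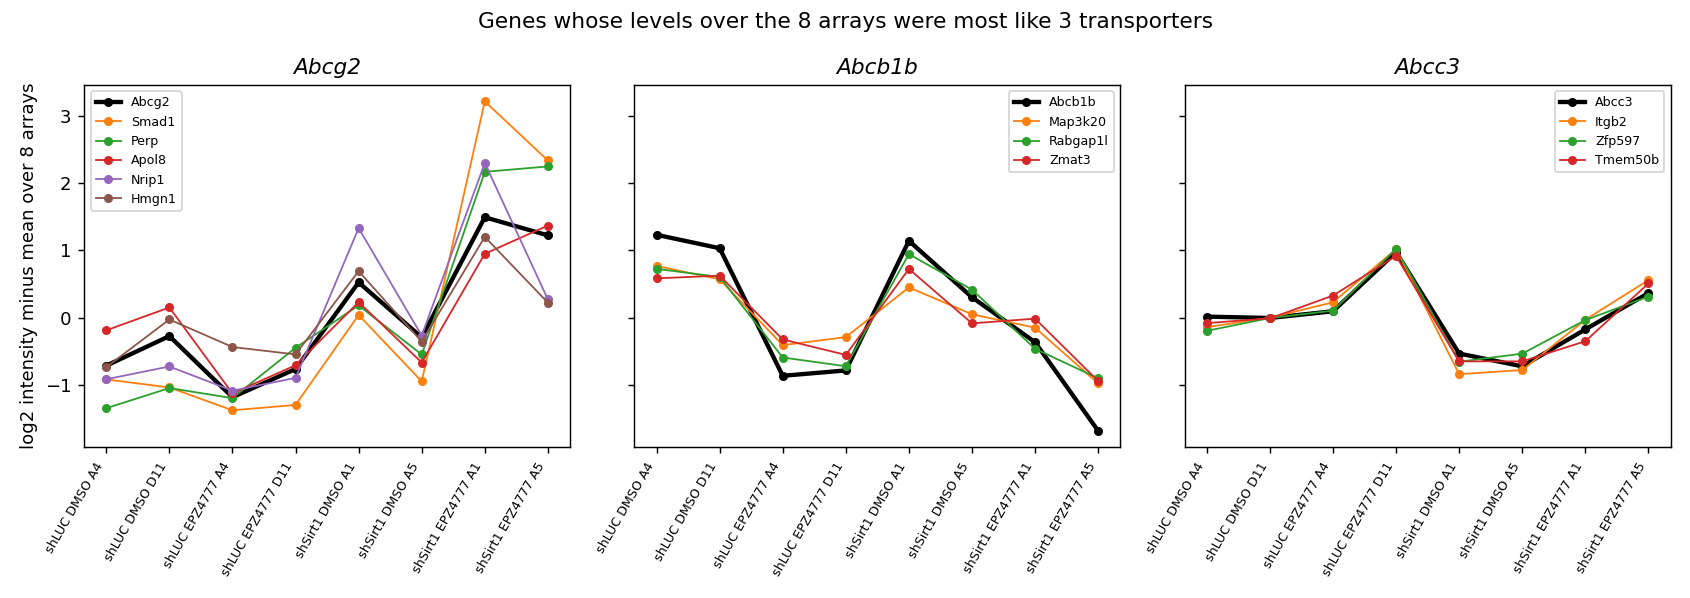
Log2 intensity minus the gene's own mean (vertical axis) on the 8 arrays (horizontal axis, by hairpin label, agent and code). Black lines are Abcg2, Abcb1b and Abcc3, and coloured lines are the genes most like each by Pearson's r. Abcg2, Smad1, Perp and Apol8 are highest on the drug-treated arrays labelled shSirt1, while Nrip1 and Hmgn1 are highest on the A1 arrays of both agents. The Abcb1b panel is high on DMSO arrays, and the Abcc3 panel peaks on D11 with drug.

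Of the 45 other ABC genes listed, 40 were measured. In shLUC cells 2 rose, 0 fell and 38 did not pass, beside 3.98% of all genes called. Abcg1, which exports cholesterol and is a relative of Abcg2, rose by 1.29 ± 0.16 (adjusted p = 0.025), and Abca13 rose by 1.22 ± 0.25 (adjusted p = 0.0473). In cells labelled shSirt1 Abcg1 read 0.48 ± 0.16 (adjusted p = 0.232) and Abca13 1.01 ± 0.25 (adjusted p = 0.155). Of the 40, 1 fell and 0 rose in that arm, beside 0.396% of all genes called. The gene that fell was Tap2, a subunit of the peptide transporter for antigen presentation, at -1.30 ± 0.18 (adjusted p = 0.045). Its partner Tap1 read -1.14 ± 0.18 there, with an adjusted p of 0.0679 and of 0.0192 with the replicate block. In shLUC cells Tap1 read -0.74 ± 0.18 and Tap2 -0.72 ± 0.18, with adjusted p-values of 0.0684 and 0.0706, and of 0.0327 and 0.0346 with the block. Abca7 read 0.76 ± 0.19 in shLUC cells, with an adjusted p of 0.0713 and of 0.0354 with the block. The median of the 40 was 0 in shLUC cells and -0.02 in the other arm, near the median of all genes, and 0 of 40 passed in DMSO.

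Nuclear receptors and other factors known to act on transporter genes were mostly not called. Of 22 measured, 0 passed in shLUC cells. In cells labelled shSirt1 Esr1, the estrogen receptor, fell by 0.91 ± 0.13 (adjusted p = 0.0497), and Pparg, a lipid-sensing receptor, read 0.99 ± 0.26 with an adjusted p of 0.167 and of 0.0442 with the replicate block. Nfe2l2, which encodes NRF2, differed by 0.27 ± 0.17 in shLUC cells (adjusted p = 0.445) and by 0.09 ± 0.17 in cells labelled shSirt1 (adjusted p = 0.831). Ahr, the aryl hydrocarbon receptor, differed by 0.37 ± 0.20 (adjusted p = 0.366) and -0.53 ± 0.20 (adjusted p = 0.284). The list's median was 0.07 in shLUC cells and -0.08 in the other arm.

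Genes of the transporters' substrate pathways were called in shLUC cells, where 3.98% of all genes were. Of 28 glutathione genes, 1 rose and 1 fell in shLUC cells. Gstm1, a glutathione transferase, rose by 0.72 ± 0.12 (adjusted p = 0.0347), and Slc7a11, the cystine importer that feeds glutathione synthesis, fell by 1.36 ± 0.19 (adjusted p = 0.0301). With the replicate block 2 rose and 2 fell, the added genes being Mgst2 at 0.61 ± 0.16 and Gstz1 at -0.87 ± 0.27. None of the 28 passed in cells labelled shSirt1, where 0.396% of all genes were called, or 2.22% with the block. In that arm Mgst2 read 0.55 ± 0.16, Gstz1 -0.89 ± 0.27, Gstm1 0.16 ± 0.12 and Slc7a11 -0.59 ± 0.19. Of 17 heme genes, which make and handle the porphyrins that ABCG2 exports, Alas1, the first enzyme of heme synthesis, rose in shLUC cells by 1.15 ± 0.13 (adjusted p = 0.0244), and 0 passed in cells labelled shSirt1. Of 8 erythroid markers measured 0 passed in either arm, and Gata1 was at most 4.03 on any array. Of 11 leukotriene and prostaglandin genes 0 passed in either arm. Ltc4s, which makes the Abcc1 substrate leukotriene C4, read 0.77 ± 0.18 in shLUC cells, with an adjusted p of 0.0624 and of 0.04 with the block. Hpgd, which breaks down prostaglandins, read -4.61 ± 0.84 in cells labelled shSirt1, with an adjusted p of 0.0832 and of 0.0422 with the block. In DMSO 0 genes of these lists passed.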

How the data were processed

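RNA of 8 samples was hybridised to Affymetrix arrays, and the authors deposited RMA-normalized intensity values, as RMA is named in the submitters' processing notes, with no version. The values are on a linear scale, from 3.6 to 24500, and log2 was taken with no pseudocount. Of 45101 probe sets 64 controls were left out, 34945 had 1 gene symbol, 932 several and 9160 none. The probe set with the highest mean log2 stood for each of 18193 genes. All 4 groups entered 1 limma fit (limma 3.58.1, R 4.3.3; lmFit and eBayes, 4 residual degrees of freedom) with Benjamini-Hochberg adjustment over all genes and a threshold of 0.05. The number of arrays limits the precision. The code was tested on simulated data.

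Whether codes pair DMSO with EPZ4777 arrays was checked by the correlation of deviations from group means, which was 0.293 for shLUC and 0.378 for the arm labelled shSirt1. With 2 codes per arm the 2 pairs of an arm mirror each other. Between the unrelated codes A4 and A1 it was 0.04 in DMSO and 0.401 in EPZ4777. The code as a replicate block is therefore an alternative, printed where it changes the call of a member and for some genes of the lists.

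The members and lists were chosen with earlier results of these data known. The plan was to name the members, up to 4 called genes per list, the first 3 genes of each marker list and the genes most like a member by Pearson's r. Some marker genes that this plan covers, called ones among them, are not named in the text. Tfrc, Hdc, Nfe2l2, Ahr, Abca7, Tap1, Pparg, Mgst2, Gstz1, Ltc4s and Hpgd were named after their values were seen. The values of Slc29a1, Meis1, Abcg1, Abca13, Gstm1 and Slc7a11 in cells labelled shSirt1 were added in the same way. The average over both arms was added after the data were seen. The promoter motifs were chosen with the members known, and windows were limited to 250 bases before the start after a first look, to keep out transcribed bases. Alternatives covered the probe set rule, filter, normalization, variance model, replicate block, offset, threshold and each array left out.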

Additional observations from a re-analysis of the deposited data

Results flagged for a closer look

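The EPZ4777 effect on Abcg2 differed between the arms by 1.73 ± 0.42 log2 units, labelled shSirt1 minus shLUC. Both shLUC codes were lower with drug and both codes labelled shSirt1 were higher. The difference was not tested, because these arrays picked the gene, and hairpin and days in drug cannot be told apart. With each array left out in turn it lay between 1.32 and 2.14. Groups of 2 arrays are too small to look for single outlying arrays.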

How the results depend on the processing

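Of 20 alternatives, 8 left out 1 array each. The main Abcb1b probe set, or the mean of both, kept its negative sign with drug in both arms under all that gave it a value, while the second probe set by itself read 0.06 in cells labelled shSirt1. At the threshold of 0.05, its adjusted p passed in 8 of the 18 that keep the threshold and Abcb1b itself in shLUC cells, between 0.0118 and 0.275, and in 2 of 18 in cells labelled shSirt1. The cause of the changes below was not tested.

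Members called in shLUC cells were 1 instead of 0 with median centring, trended variance, only the 4 arrays compared, the fixed or random replicate block, an offset of 16 or a threshold of 0.10, and 0 to 1 with arrays left out. In cells labelled shSirt1 they were 1 with either replicate block. In the average they were 2 with the mean of probe sets and 0 once genes under the median were removed, which removes Abcb1b itself and leaves 9097 genes and 4 members, and 0 to 2 with arrays left out. The replicate block changed no other member call.

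Genes called in shLUC cells were 1424 without dim genes, 402 with only the 4 arrays compared, 1316 and 2379 with the fixed and random replicate block (correlation 0.315), 1202 with the offset and 1958 at 0.10. They were 0 without either shLUC DMSO array, 2 without D11 with drug, 353 without either DMSO array labelled shSirt1, and 1031 at most. In cells labelled shSirt1 they were 38 with every probe set by itself, 0 with only the 4 arrays, 404 and 504 with the fixed and random block, 0 with the offset and 263 at 0.10. They were 0 without the DMSO arrays of A4, D11 or A1, 1 and 37 without the drug arrays of A5 and A1, 121 without either shLUC drug array and 205 without the DMSO array of A5. In DMSO they were 0 to 155, the highest without A5. Between the drug-treated arms they were 14 with only the 4 arrays, 245 at 0.10 and 0 to 73 with arrays left out, with 2 without either shLUC DMSO array, 15 and 0 without the shLUC drug arrays of A4 and D11, and 11 without the drug array of A5. For the difference of effects they were 3 with either replicate block and 0 to 89 with arrays left out. In the average they were 3718 with the random block, 3399 at 0.10 and 2 to 2588 with arrays left out, with 2 and 6 without the shLUC DMSO arrays of D11 and A4, 461 without the shLUC drug array of D11, 872 without either DMSO array labelled shSirt1 and 408 without the drug array of A5.

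Signs turned for small differences. Abcc4 in shLUC cells was 0.019 after quantile normalization and Abcc5 in DMSO was -0.067 with the mean of probe sets. With arrays left out, the range in shLUC cells was -0.15 to 0.38 for Abcb4 and -0.23 to 0.20 for Abcc4. In cells labelled shSirt1 it was -0.27 to 0.10 for Abcb1a, -0.071 to 0.24 for Abcb4 and -0.18 to 0.037 for Abcc1. In DMSO it was -0.35 to 0.023 for Abcb1a, -0.83 to 0.006 for Abcb1b, -0.046 to 0.081 for Abcb4 and -0.12 to 0.14 for Abcc5. In the average it was -0.031 to 0.23 for Abcb4 and -0.023 to 0.19 for Abcc4. A group left with 1 array is assumed to vary like the others. The fixed block could not be fitted for comparisons between hairpins, and the fit to 4 arrays was not run for the difference or the average. Genes of the lists were refitted with the replicate block alone. Dim signal limits Abcb1a and the low end of Abcb1b.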

Other observations

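Uptake transporters, which bring drugs and nucleosides into cells, were also measured, 18 of 22 listed. Slco4a1, an organic anion carrier, rose with EPZ4777 in both arms, by 1.69 ± 0.14 in shLUC cells (limma adjusted p = 0.0171) and by 1.25 ± 0.14 in cells labelled shSirt1 (adjusted p = 0.0399). Slc29a1, the equilibrative transporter that takes up nucleosides and analogues such as cytarabine, fell in shLUC cells by 0.89 ± 0.14 (adjusted p = 0.0326). It read -0.77 ± 0.14 in cells labelled shSirt1, with an adjusted p of 0.079 and of 0.0387 with the replicate block. The other 16 genes did not pass in shLUC cells, and the list's median was -0.03 there and 0 in cells labelled shSirt1. Of 24 cytochrome P450 and phase II enzymes, 0 passed in either arm, with or without the replicate block, and their medians were 0.04 and -0.15. In DMSO 0 genes of both lists passed. The neutrophil sum was higher with drug in all 4 codes, and its part in these values was not tested.

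Other marker lists were measured beside the transporters. The summed intensity of 9 mast cell and basophil markers was 469 to 573 in DMSO and 628 to 1358 with drug. That of 8 megakaryocyte markers was 410 to 491 in DMSO and 603 to 1246 with drug. Of its defining markers, Pf4 lay between 6.86 and 7.64 in DMSO and between 8.07 and 9.81 with drug. Itga2b stayed between 6.26 and 6.65 and Gp1bb between 5.40 and 5.83, so the megakaryocyte sum does not stand for the list as a whole. Sums stayed within 158 to 173 for 6 T and NK cell markers and 104 to 145 for 6 B cell markers. Sums of 10 stem and progenitor markers lay between 851 and 1167, of 11 dendritic cell markers between 330 and 570, and of 10 stroma markers between 533 and 891. The stem and progenitor sum does not stand for its list, as Meis1 was called lower and Procr higher with drug in shLUC cells.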
